A study of Drosophila melanogaster with 10 samples.

Results

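The genes described here are 10 transcription factor genes that pattern the proximal wing disk of Drosophila, namely the hinge genes hth, tsh, zfh2 and Sox15, the notum genes pnr, tup and eyg, and the Iroquois genes mirr, ara and caup. They were chosen by symbol as genes of disk regions that lie mostly outside the pouch, and they are 10 of the 17807 gene IDs in the count table. RNA was sequenced from wing disks of late larvae of the third instar, kept at 25 °C, with about 70 disks pooled in each sample and 2 samples in each of 5 groups. In every group MS1096-Gal4, a driver inserted in the Bx locus and active mainly in the wing pouch, expressed a transgene that carried GFP. The control group expressed GFP alone (MS1096 > GFP). The second group expressed full-length Nkd tagged with GFP (MS1096 > Nkd_GFPC). The other groups expressed tagged Nkd with a deletion, either of the region that binds Dsh (Nkd_del_R1S_GFPC, here NkdΔR1S) or of a potential nuclear localization signal (Nkd_del_30aa_GFPC and Nkd_del_D6_GFPC, here NkdΔ30aa and NkdΔD6). The samples of a group are described as biological duplicates, but it is not said whether they came from separate crosses, so p-values cover no more than the variation within these pairs of samples, some of it perhaps technical. A whole disk holds pouch, hinge and notum together, so in these bulk samples fewer cells of a type and less RNA per cell cannot be told apart.

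The wing disk is divided along its proximal to distal axis into the notum, which forms the dorsal thorax, the hinge, which joins the wing to the body, and the pouch, which forms the wing blade. The proteins Hth and Tsh mark the proximal territory and are cleared from the pouch early in its growth, when vg and nub come on there. In the notum, Pnr marks the medial part and the Iroquois proteins the lateral part, and the Iroquois genes are used a second time in the pouch, where Ara and Caup act in prospective veins.

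The libraries held 18695697 to 20941842 counts, and all 10 members were among the 9264 genes that passed the expression filter. The targeted gene, nkd, was at 37.3 and 70.1 CPM (counts scaled to library size with the TMM factors of edgeR) in the GFP libraries, at 1141 and 1190 CPM with Nkd, at 345 and 512 CPM with NkdΔR1S, at 1176 and 1498 CPM with NkdΔ30aa, and at 1349 and 993 CPM with NkdΔD6. Counts of nkd hold transgene and endogenous transcripts together. Against Nkd, the log2 fold change of nkd was -1.44 with NkdΔR1S (adjusted p = 0.115 from edgeR), 0.20 with NkdΔ30aa and 0.01 with NkdΔD6. None of these was called, but both NkdΔR1S libraries were below both of Nkd, so that group may differ in level as well as in the deletion. Bx, where the driver sits, was called in no comparison. Long genes took a different share of the counts in different libraries: over genes, the rank correlation of exon length with a library's deviation from the mean ran from -0.616 in GFP replicate 1 to 0.620 in NkdΔ30aa replicate 1. The members are long, with a median exon length of 4104.5 bases against 2020 for all genes tested, so calls are also given with this length trend taken out. The wing disk markers vg, nub, ap and Bx summed to 389 to 760 CPM. Salivary gland markers ran from 54.7 to 15980 CPM, with the highest sums in Nkd replicate 1 and GFP replicate 1, and no marker gene was at 0 in all libraries.

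The members lie on chromosomes 2, 3 and 4, and 4 of them are close together on the arm 3L. On 3L of the BDGP6 build, eyg (FBgn0000625) spans 12462537 to 12468021, ara (FBgn0015904) 12580672 to 12596018, caup (FBgn0015919) 12609631 to 12621798 and mirr (FBgn0014343) 12693639 to 12710249. The last 3 form the Iroquois complex. The gap between ara and caup is 13.6 kb with 0 annotated genes in it, the gap from caup to mirr is 71.8 kb with 4 genes, and eyg lies 113 kb before ara with 27 genes between. The others stand apart: hth (FBgn0001235) at 3R from 10507561 to 10639568, pnr (FBgn0003117) at 3R from 16026079 to 16041796, tup (FBgn0003896) at 2L from 18859507 to 18881261, tsh (FBgn0003866) at 2L from 21828593 to 21837011, Sox15 (FBgn0005613) at 2R from 14201390 to 14212413, and zfh2 (FBgn0004607) on chromosome 4 from 501810 to 540874. Exon lengths ran from 2942 bases in ara to 12424 bases in zfh2, with hth at 11839 bases. Of the exon bases of zfh2, 18.7% overlap exons of Tdg, a gene on the opposite strand, and since it is not stated whether the counting used strand, reads in that overlap cannot be assigned to either gene. Of hth, 1.75% overlaps an antisense RNA with at most 4 counts in a library. The remaining 8 members share no exon base with another gene.

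Every member was expressed in the control disks. Per kilobase of exon, the highest level was that of tsh, at 41.0 ± 1.88 CPM per kb (SD, n = 2), followed by ara at 37.8 ± 1.89, Sox15 at 33.3 ± 0.380 and caup at 20.5 ± 0.305. A lower set held eyg at 14.4 ± 1.77 CPM per kb, hth at 13.02 ± 3.94 and mirr at 11.5 ± 1.22. The lowest levels per kb were those of pnr at 9.21 ± 1.12, tup at 8.90 ± 0.842 and zfh2 at 4.82 ± 1.21. In this order the libraries of eyg and hth, of hth and mirr, and of pnr and tup overlapped, while the other neighbours did not. So in the GFP libraries the proximal regulators tsh and Sox15 led in the hinge set, and ara and caup led mirr within the Iroquois complex. The notum genes eyg, pnr and tup held places 5, 8 and 9 of 10. Long genes such as hth and zfh2 took a low share of the counts in these libraries (rank correlations with length of -0.616 and -0.479). Averaged over all 10 libraries, zfh2 (11.4 CPM per kb) was above pnr (9.53) and tup (8.60), and hth (19.9) above eyg (15.7).

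**Figure D1:**
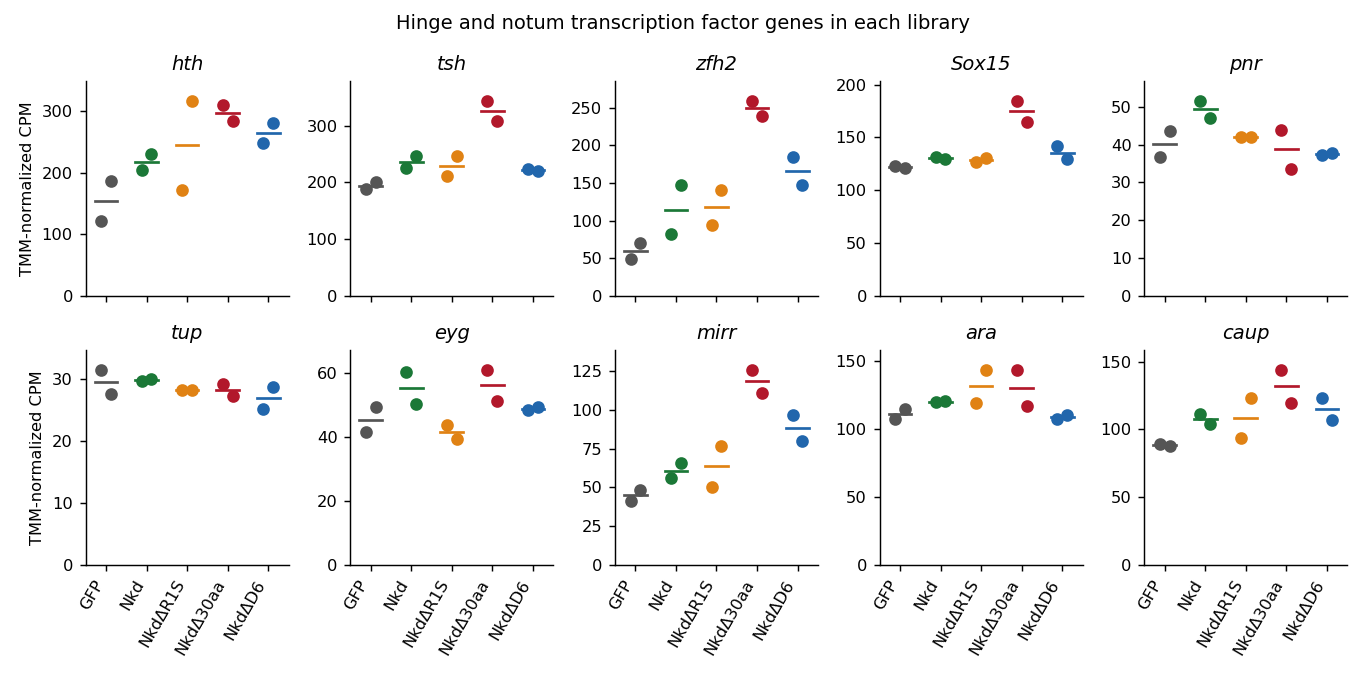
Level of each of the 10 genes in each library, in CPM scaled by TMM on a linear axis from 0, with 2 points per group for the 2 libraries and a bar at their mean. The NkdΔ30aa libraries lie above both GFP libraries for 8 of the 10 genes, most clearly for zfh2 and mirr, whereas tup and pnr overlap the GFP libraries.

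Of the 4 hinge genes, 3 rose with NkdΔ30aa and 1 of these, zfh2, also rose with NkdΔD6. Of all genes tested, 18.2% and 10.4% were called higher with these forms. Among genes with exon lengths in the range of the members it was 50.1% and 28.5%. zfh2, which encodes a protein with zinc fingers and homeodomains that is needed in the proximal wing, was at 49.3 and 70.5 CPM in the GFP libraries, at 81.7 and 147 with Nkd, at 94.5 and 140.1 with NkdΔR1S, at 259.7 and 239 with NkdΔ30aa, and at 184 and 147 with NkdΔD6. All 8 libraries with a form of Nkd were above both GFP libraries, and the NkdΔ30aa libraries were the highest. Relative to GFP, zfh2 rose in NkdΔ30aa disks by a log2 fold change of 2.06 (SE 0.33, adjusted p = 0.00212 from edgeR) and in NkdΔD6 disks by 1.47 (SE 0.32, adjusted p = 0.0176 from edgeR). With Nkd the value was 0.93 (SE 0.32, adjusted p = 0.0793 from edgeR) and with NkdΔR1S 0.97 (SE 0.32, adjusted p = 0.189 from edgeR), neither of which passed. With the length trend taken out, zfh2 was still called with NkdΔ30aa (0.60, adjusted p = 0.0245 from edgeR). It was no longer called with NkdΔD6 (0.52, adjusted p = 0.0559 from edgeR). The overlapping gene Tdg, a DNA glycosylase gene named after its values were seen, was at 44.4 and 73.1 CPM in GFP libraries, 137 and 138 in NkdΔ30aa libraries, and 101 and 103 in NkdΔD6 libraries. It was called higher with NkdΔ30aa (log2 fold change 1.23, SE 0.23, adjusted p = 0.00380 from edgeR) and with NkdΔD6 (0.79, SE 0.23, adjusted p = 0.0393 from edgeR), and the part of the shared exons in the change of zfh2 was not tested.

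hth encodes the TALE homeodomain partner that carries Exd into the nucleus. Its level was 121 and 187 CPM in the GFP libraries, 204 and 230.1 with Nkd, 172 and 318 with NkdΔR1S, 310.4 and 284 with NkdΔ30aa, and 248 and 282 with NkdΔD6. The NkdΔR1S libraries were the farthest apart and overlapped those of GFP, and the GFP libraries were themselves well apart. hth rose in NkdΔ30aa disks, with a log2 fold change of 0.95 (SE 0.30, adjusted p = 0.0329 from edgeR), and reached 0.78 (SE 0.30, adjusted p = 0.0867 from edgeR) with NkdΔD6, where both DESeq2 fits called it higher. With the length trend taken out, the NkdΔ30aa value turned to -0.47 (adjusted p = 0.114 from edgeR). The call in NkdΔ30aa disks was lost without GFP replicate 1, where the log2 fold change was 0.67 (adjusted p = 0.179 from edgeR), without NkdΔ30aa replicate 1 (0.89, adjusted p = 0.152 from edgeR) and without NkdΔ30aa replicate 2 (1.01, adjusted p = 0.111 from edgeR).

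tsh, a zinc finger gene of the proximal territory, was at 188 and 200.3 CPM in the GFP libraries, 225 and 247 with Nkd, 211 and 246 with NkdΔR1S, 345 and 309 with NkdΔ30aa, and 223 and 220.4 with NkdΔD6. Its libraries were close together within each group, and only those of NkdΔ30aa stood well above the rest. It rose with NkdΔ30aa by a log2 fold change of 0.75 (SE 0.11, adjusted p = 0.00128 from edgeR), while the other forms gave 0.19 to 0.28 with adjusted p from 0.0976 to 0.259. With the length trend taken out, the NkdΔ30aa value was 0.00 (adjusted p = 0.981 from edgeR), which ends the call. Sox15, a gene for an HMG box factor of the hinge, was the steadiest member of this set. Its libraries lay between 121 and 142 CPM in every group but NkdΔ30aa, where they were at 185 and 165 CPM. The log2 fold change of Sox15 with NkdΔ30aa was 0.52 (SE 0.09, adjusted p = 0.00253 from edgeR), which is 1.44-fold and so under the minimum fold of 1.5. It was called there by DESeq2 on the libraries of both groups and by edgeR without NkdΔ30aa replicate 2.

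None of the 3 notum genes was called in any comparison by edgeR on the TMM scale. pnr, the GATA factor gene of the medial notum, ran from 33.7 to 51.7 CPM over the 10 libraries, with the 2 highest values in the Nkd libraries (51.7 and 47.0 CPM) and the lowest in NkdΔ30aa replicate 2. tup, which encodes a LIM homeodomain protein of the Islet family, was the most even of the members. Its 10 libraries spanned 25.1 to 31.5 CPM, and its group means differed by at most 0.15 on the log2 scale. eyg, a Pax gene of the notum, ran from 39.4 CPM in NkdΔR1S replicate 2 to 61.0 CPM in NkdΔ30aa replicate 1. Against GFP the log2 fold changes of these genes lay between -0.10 and 0.30 for pnr, between -0.13 and 0.02 for tup, and between -0.12 and 0.31 for eyg, the latter with an adjusted p of 0.101 from edgeR in NkdΔ30aa disks.

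The 3 genes of the Iroquois complex, which encode TALE homeodomain proteins, did not move by the same amount. mirr was at 41.3 and 48.1 CPM in the GFP libraries, 55.8 and 65.4 with Nkd, 50.3 and 76.8 with NkdΔR1S, 126 and 111 with NkdΔ30aa, and 96.6 and 79.8 with NkdΔD6. All libraries with a form of Nkd were above both GFP libraries, those of NkdΔ30aa the most. mirr rose with NkdΔ30aa (log2 fold change 1.41, SE 0.20, adjusted p = 0.00137 from edgeR) and with NkdΔD6 (0.98, SE 0.20, adjusted p = 0.0138 from edgeR).

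caup was at 89.5 and 87.6 CPM in GFP libraries, 111 and 104 with Nkd, 93.5 and 123 with NkdΔR1S, 144 and 119.8 with NkdΔ30aa, and 123 and 107 with NkdΔD6. Its 8 libraries with a form of Nkd were all above those of GFP, by less than for mirr. The log2 fold change with NkdΔ30aa, 0.58 (SE 0.15, adjusted p = 0.0134 from edgeR), is 1.49-fold and just under the minimum fold, and caup was called there with RLE size factors, with DESeq2, without the expression filter, in edgeR on those 4 libraries alone, and without NkdΔ30aa replicate 2. ara, its nearest neighbour on the chromosome, was at 107 and 115 CPM in GFP libraries and at 144 and 117 CPM in those of NkdΔ30aa. Its log2 fold changes against GFP ran from -0.03 to 0.24, and it was called in no comparison.

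**Figure D2:**
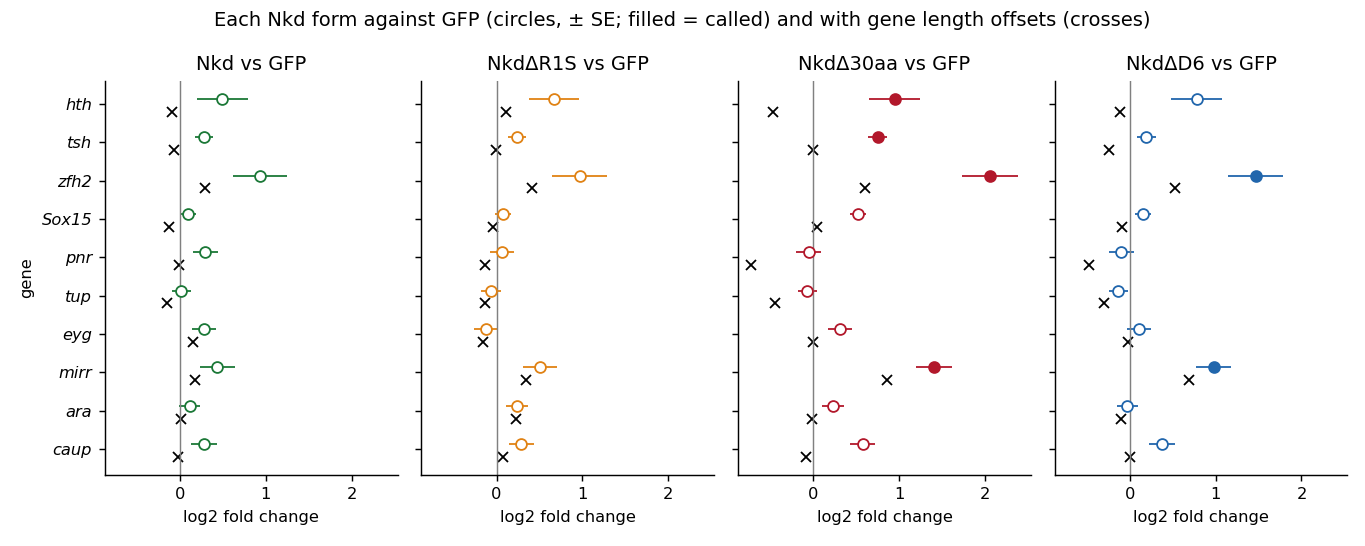
Log2 fold change of each gene in each form of Nkd against GFP (circles, with the standard error as a bar, filled where the gene was called), and the same value after offsets that take out the length trend of each library (crosses). The filled circles are hth, tsh, zfh2 and mirr for NkdΔ30aa and zfh2 and mirr for NkdΔD6, and in the NkdΔ30aa panel the crosses lie to the left of the circles for all 10 genes.

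Counted over the members, a call needed more than a 1.5-fold difference together with an adjusted p, over all genes tested, below 0.05. With Nkd, edgeR called 0 of 10 members, against 3.05% of all genes tested called higher and 4.51% lower. Among genes with exon lengths in the range of the members, 8.80% were called higher. At an unadjusted p under 0.05 with the same fold, 1 member (zfh2) passed, against 6.42% of all genes on the higher side, and DESeq2 also called zfh2, with 10.6% of genes higher in the fit of all libraries and 7.25% higher in that of the 2 groups. With NkdΔR1S, edgeR again called 0 of 10, where 0.054% of all genes were higher and 0.119% lower. Here too 1 member, zfh2, passed at the unadjusted p (4.64% of all genes higher) and in DESeq2 (3.23% higher with all libraries, 0.856% with those of the 2 groups).

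With NkdΔ30aa, 4 of 10 members were called higher and 0 lower, against 18.2% of all genes higher and 12.8% lower. Among genes with exon lengths in the range of the members, 50.1% were called higher, beside 40% of the members. With NkdΔD6, 2 of 10 members were higher and 0 lower, against 10.4% and 5.81% of all genes, and 28.5% of the genes in that length range were higher. Both calls in NkdΔD6 disks were lost without GFP replicate 1 (zfh2 1.23, adjusted p = 0.123, and mirr 0.87, adjusted p = 0.0994, from edgeR) and without NkdΔD6 replicate 1 (zfh2 1.37, adjusted p = 0.128, and mirr 0.91, adjusted p = 0.127, from edgeR). The 4 comparisons share the GFP libraries, so they are not separate observations of the controls.

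Small shifts upward were more frequent than calls. Both libraries lay above both GFP libraries for 9 of 10 members with Nkd, where this held for 28.2% of all genes tested, and for 6 with NkdΔR1S (20.9%), 8 with NkdΔ30aa (34.6%) and 6 with NkdΔD6 (29%). The median log2 fold change over the members was 0.28, 0.24, 0.55 and 0.17 in that order of the forms, beside -0.05, -0.03, -0.13 and -0.10 over all genes tested. In the 2773 tested genes with exon lengths in the range of the members it was 0.35, 0.24, 0.67 and 0.39, so the median of the members was at or below that of genes of like length. By role, the median with NkdΔ30aa was 0.85 in the hinge genes, 0.58 in the Iroquois genes and -0.05 in the notum genes, and with NkdΔD6 it was 0.49, 0.38 and -0.10. With Nkd the roles differed less, at 0.39, 0.28 and 0.29, and with NkdΔR1S the medians were 0.45, 0.29 and -0.06. The hinge genes are also the longest, with a median exon length of 8286 bases against 3892 in the Iroquois genes and 3314 in the notum genes. With length offsets the hinge, Iroquois and notum medians were 0.02, -0.02 and -0.44 with NkdΔ30aa and -0.10, 0.00 and -0.30 with NkdΔD6.

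**Figure D3:**
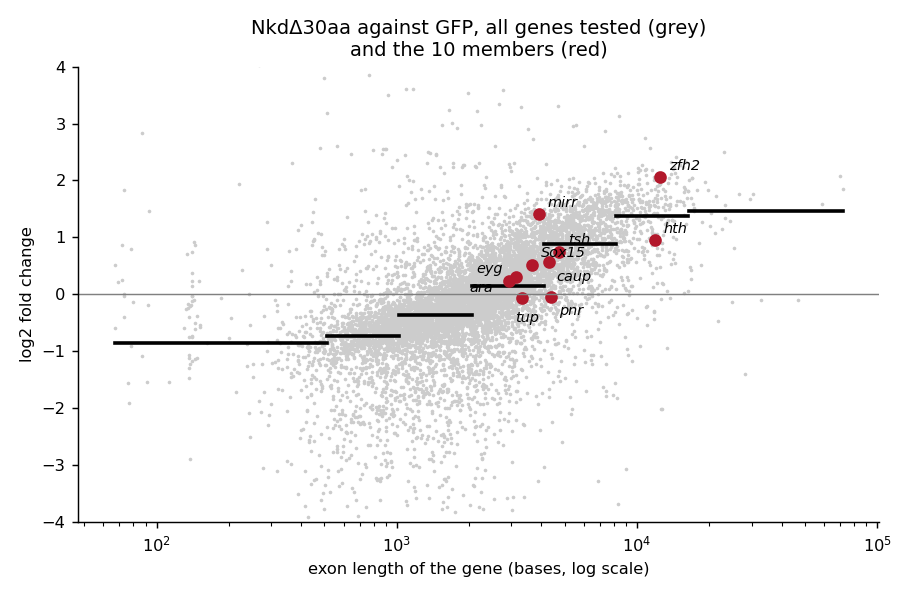
Log2 fold change of NkdΔ30aa against GFP (vertical axis, limited to -4 to 4, with 82 genes outside it) for each of the 9264 genes tested, against the exon length in bases on a log axis. Grey points are genes, and red points are the 10 members. Black lines are medians over 7 classes of length, which rise from -0.86 in the shortest to 1.47 in the longest. At 3892 bases, mirr (1.41) lies near the upper end of its class, which ends at 4096 bases. It is above the median of that class, 0.15, and that of the next longer class, 0.88. hth lies below the median of its own class, 1.37.

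With the length trend taken out of each library, 2 members were higher with NkdΔ30aa, zfh2 (log2 fold change 0.60, adjusted p = 0.0245 from edgeR) and mirr (0.86, adjusted p = 0.00818 from edgeR), where 4.93% of all genes were called higher. In the same fit pnr was called lower (-0.72, adjusted p = 0.00960 from edgeR), against 4.72% of all genes. As given above, the calls of tsh and hth with NkdΔ30aa were lost on this scale. The value of tup was -0.44, with an adjusted p of 0.0356 from edgeR and a fold under the minimum. With NkdΔD6 only mirr was called (0.69, adjusted p = 0.0254 from edgeR), against 3.03% of all genes higher and 2.84% lower, and zfh2 was at 0.52 (adjusted p = 0.0559 from edgeR). Of 40 values, 10 genes in 4 comparisons with GFP, 17 changed sign under these offsets. The offsets cannot tell a technical length trend from changes shared by long genes.

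The ratio of 2 members within a library does not depend on how libraries are scaled, and for genes of like length it is little affected by a length trend. Exon lengths of mirr (3892 bases) and caup (4317 bases) are within 10% of each other, and their ratio of counts was 0.462 and 0.549 in GFP libraries, 0.5002 and 0.628 with Nkd, 0.537 and 0.625 with NkdΔR1S, 0.875 and 0.928 with NkdΔ30aa, and 0.783 and 0.748 with NkdΔD6. The NkdΔ30aa and NkdΔD6 libraries were above all others, 1.79-fold and 1.52-fold over GFP. The hinge gene tsh and the notum gene pnr, also close in length, gave ratios of 5.11 and 4.59 in GFP libraries and 7.86 and 9.17 in NkdΔ30aa libraries, a 1.75-fold difference, while the other forms gave 4.35 to 5.98. The long genes hth and zfh2 both rose with NkdΔ30aa, zfh2 by more. Their ratio was 2.46 and 2.65 in GFP libraries and 1.20 and 1.19 in those of NkdΔ30aa, that is 0.468-fold. Since zfh2 shares exon bases with Tdg, reads of Tdg may enter this ratio. The ratio of caup to ara, which differ more in length, was 0.835 and 0.762 in GFP libraries, 1.003 and 1.02 with NkdΔ30aa, and 1.151 and 0.964 with NkdΔD6. The ratios were not tested and are given as a description.

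**Figure D4:**
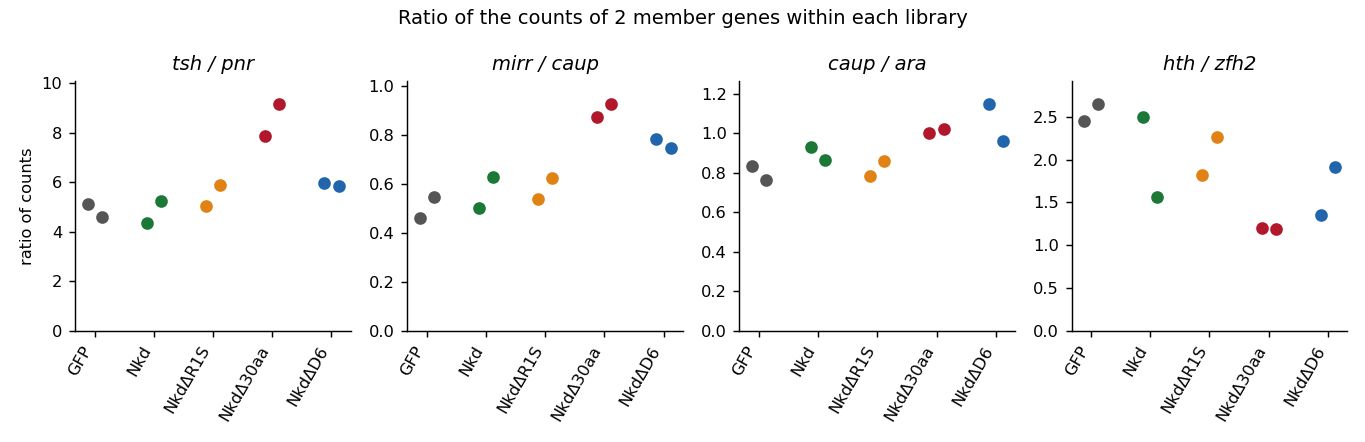
Ratio of the raw counts of 2 member genes within each library, on a linear axis from 0, with 1 point per library and 2 libraries per group. The ratio of mirr to caup is 0.875 and 0.928 and that of tsh to pnr 7.86 and 9.17 in NkdΔ30aa libraries, above all others, and the ratio of hth to zfh2 is lowest there, at 1.20 and 1.19.

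Each deletion was also set against full-length Nkd. With NkdΔ30aa, 1 of 10 members, mirr, was higher than with Nkd (log2 fold change 0.97, SE 0.20, adjusted p = 0.0337 from edgeR), where 5.86% of all genes were called higher and 0.82% lower. tsh (0.47, adjusted p = 0.0382 from edgeR) and Sox15 (0.43, adjusted p = 0.0352 from edgeR) passed the p threshold at folds under 1.5, and zfh2 stood at 1.13 (SE 0.32, adjusted p = 0.0683 from edgeR). The call of mirr was lost when any of the 4 libraries was left out. With length offsets it was not called, and the one member called was pnr, which was lower, against 0.378% of all genes called higher and 0.561% lower.

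NkdΔR1S and NkdΔD6 gave 0 of 10 members called against Nkd in edgeR. The backgrounds were 0.13% of all genes higher and 0.054% lower for NkdΔR1S, and 0.0756% higher and 0.054% lower for NkdΔD6. At an unadjusted p under 0.05 with the fold minimum 0 members passed for either form, against 4.72% and 4.65% of all genes, and DESeq2 fitted to those 4 libraries called 0, against 1.51% and 1.42%. For NkdΔR1S the member values ran from -0.41 for eyg to 0.17 for hth, and for NkdΔD6 from -0.39 for pnr to 0.54 for mirr. These missing calls do not show that the forms act alike on these genes.

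Genes of the same regions and of the proteins that work with the members were followed as lists. Their counts stand beside 18.2% of all genes called higher with NkdΔ30aa, 10.4% with NkdΔD6 and 3.05% with Nkd. Among genes in the length range of the members these shares are 50.1%, 28.5% and 8.80%. The median exon length was 2684 bases in the other hinge genes and 2933 in the other notum genes. It was 3503 in the JAK/STAT genes, 4412 in the partners and paralogs, and 4441 in the genes of that length range. The other hinge and other notum genes are thus shorter, and the shares of that range are not a like background for them. Among 6 partners and paralogs (exd, tio, toe, ush, Chi and Ssdp), 2 were higher with NkdΔ30aa and with NkdΔD6. They were ush, whose protein binds Pnr and modulates it, with log2 fold changes of 1.75 and 1.18, and tio, the paralog of tsh, with 1.63 and 0.83. With Nkd, ush alone was called, at 0.69. The list of 12 other hinge genes had 2 higher with NkdΔ30aa, jing at 1.83 and nab at 0.60, 1 with NkdΔD6, jing at 1.27, and 1 with Nkd, grn at 0.60. Of 7 genes of JAK/STAT signaling, which acts in the hinge, 3 were higher with NkdΔ30aa, led by the kinase gene hop at 1.504 and the ligand gene upd1 at 1.27, and 3 with NkdΔD6, led by hop at 0.96 and the receptor gene dome at 0.66. With Nkd edgeR called 0 of these 7, though all 7 values were positive with a median of 0.57. DESeq2 called 3 with all libraries (10.6% of all genes higher) and 1 with those of the 2 groups (7.25%).

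Among 6 other notum genes the directions were mixed. With NkdΔ30aa the EGF receptor ligand gene vn was higher at 1.37, and the proneural genes ac and sc, which prefigure the bristles, were lower at -0.87 and -0.61. With NkdΔD6, vn was higher at 0.78 and the Bar gene B-H1 lower at -0.61, and with Nkd, vn alone was called, at 0.92. The genes named from these lists had adjusted p-values from 0.000983 to 0.0448 in edgeR. With length offsets, the calls with NkdΔ30aa became 2 higher and 1 lower among partners and paralogs, 0 and 1 among the other hinge genes, 2 and 1 in JAK/STAT signaling and 0 and 0 among the other notum genes. In the same fit 0 genes of these lists were higher with NkdΔD6 or with Nkd. In these lists 0 genes were called with NkdΔD6 without GFP replicate 1 or without NkdΔD6 replicate 1, and 0 with Nkd without GFP replicate 1 or without either Nkd replicate.

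As a contrast, 11 genes of the pouch, where the driver is active, had 9 members higher with NkdΔ30aa, led by salm at 1.84 and rn at 1.55, 5 with NkdΔD6, led by rn at 1.23 and salm at 1.17, and 2 with Nkd, salr at 0.81 and dve at 0.75. As shares of the list these are 81.8%, 45.5% and 18.2%, beside 18.2%, 10.4% and 3.05% of all genes. Among genes in the length range of the members the shares are 50.1%, 28.5% and 8.80%. The median log2 fold change of the pouch list was 0.48, 0.26, 1.02 and 0.51 for Nkd, NkdΔR1S, NkdΔ30aa and NkdΔD6, higher in each than that of the 10 proximal genes. The median exon length of the pouch list was 5278 bases, longer than that of the members. With length offsets the pouch medians were 0.045, 0.046, 0.579 and 0.326, beside -0.020, 0.037, -0.011 and -0.098 in the members. The lists were thus nearly level on this scale with Nkd and NkdΔR1S. With length offsets 4 pouch genes were higher with NkdΔ30aa, 1 with NkdΔD6 and 0 with Nkd, and the count with NkdΔD6 was 0 without GFP replicate 1 or without NkdΔD6 replicate 1. That with Nkd was 0 without GFP replicate 1 or without Nkd replicate 2, and 1 without Nkd replicate 1. The mean log2 CPM of the members less that of the pouch genes was 0.35 and 0.14 in the GFP libraries and 0.00 and -0.38 in those of NkdΔ30aa. It was 0.18 and 0.12 with Nkd, 0.20 and 0.24 with NkdΔR1S, and -0.07 and 0.03 with NkdΔD6. The difference between the lists carries no test. With NkdΔR1S, edgeR called 0 genes of the pouch list and of the 4 lists above, beside 2 pouch genes, 1 partner or paralog, 1 other hinge gene and 1 other notum gene at an unadjusted p under 0.05 with the fold minimum, and 3 pouch genes and 1 other notum gene in DESeq2 on all libraries. For Nkd, DESeq2 on all libraries called 4 pouch genes and 2 other hinge genes higher, and on the libraries of the 2 groups 2 and 1.

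Some markers of other cells were also called, against the same shares of all genes. The haltere gene Ubx was at 6.49 and 3.92 CPM in the GFP libraries and at 8.88 to 14.7 CPM in all 8 others, and was called higher with Nkd, NkdΔ30aa and NkdΔD6. Of 6 myoblast markers, 3 were higher with NkdΔ30aa, where the list summed to 162 to 190.0 CPM against 112 to 128 CPM in GFP libraries, and with NkdΔD6 2 were higher and 1 lower, with sums of 144 to 167 CPM. With NkdΔ30aa, 2 of 8 hemocyte markers were higher, but 3 of the 8 had a positive value and the list median was -0.34. Of 8 larval muscle markers the 1 called higher was the only one with a positive value, and the median was -1.18. Of 4 tracheal markers 1 was higher, with a median of 0.18. With NkdΔ30aa, 0 of 7 salivary gland, 0 of 6 fat body and 0 of 5 gut markers were called. Their medians were -1.81, -0.96 and -1.82, so a missing call does not mean an unchanged level. Sums of these lists could differ widely within a group. In the Nkd libraries the gut markers summed to 1473 and 9.31 CPM, and the fat body markers to 2109 and 513 CPM. With NkdΔD6, 2 of the 8 hemocyte, 1 of the 8 larval muscle and 1 of the 4 tracheal markers were also higher. The list medians there were -0.72, 0.38 and 0.12. With Nkd, 1 of the 6 myoblast markers was higher. With length offsets 0 genes of the haltere, myoblast, hemocyte and tracheal lists were called in these comparisons, and 1 larval muscle marker was lower with NkdΔ30aa. The part of these markers in the changes of the members was not tested.

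The genes whose pattern over the 5 groups was nearest to each member, by the root mean square difference of centred log2 group means, came from outside the list. With 9264 genes tested and 10 members, this says little about likeness among the members. The nearest genes were Cyfip for hth (0.05), Fur2 for tsh (0.01), stan for zfh2 (0.03), EDTP for Sox15 (0.02), CG42806 for pnr (0.02), MED6 for tup (0.01), CG16863 for eyg (0.02), pad for mirr (0.02), SH3PX1 for ara (0.02) and tamo for caup (0.02). Among the members themselves the nearest pair was tsh and Sox15, at 0.0875, with caup and Sox15 almost level at 0.0891. In the order of likeness to tsh, Sox15 had rank 155 among all genes tested.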

How the data were processed

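RNA was sequenced from 10 wing disk samples. The deposited values are raw counts per gene, which the authors obtained with featureCounts from paired-end alignments (HISAT2 2.2.1, build BDGP6). For its strand setting, no value was found in the methods or labels. The 10 sample tables equalled the series table. The test was the robust quasi-likelihood F test of edgeR 4.0.16 in R 4.3.3, after TMM and filterByExpr, with p-values adjusted by Benjamini-Hochberg over all genes tested. All libraries entered 1 fit with group as the factor, which leaves 5 residual degrees of freedom. Standard errors are the log2 fold change divided by the square root of F. Calls needed more than a 1.5-fold difference and an adjusted p below 0.05. Alternatives were RLE, no filter, DESeq2 1.42.0, edgeR on the groups compared, a replicate block, offsets for exon length (lowess, span 0.3), other thresholds, and leaving out each library. The code was tested on simulated counts.

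The members and lists were chosen with earlier results of these data known. All 10 members are named, with at most the 2 highest and 2 lowest called genes of each other list per comparison, nkd and Bx as checks, the nearest gene of each member, and Tdg and Ubx because results touch on them. Ratios were formed for members within 10% in exon length and for neighbours in the Iroquois complex, and those shown were picked after they were computed. Depth differed little between libraries, so precision is limited by the agreement of the paired samples within each group.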

Additional observations from a re-analysis of the deposited data

How the results depend on the processing

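The number of members called with NkdΔ30aa against GFP was 4 and stayed within 3 to 6 under all settings, with changing genes: pnr (lower) replaced hth and tsh with length offsets, and hth was lost without the filter and turned to -0.47 with length offsets. Leaving out a library gave 3 to 5 members with NkdΔ30aa, 0 to 2 with NkdΔD6, 0 with Nkd and 0 with NkdΔR1S. For Nkd and for NkdΔR1S against GFP, both DESeq2 fits and the unadjusted p gave 1 in place of 0. For NkdΔD6 against GFP, length offsets gave 1 in place of 2, and both DESeq2 fits and the unadjusted p gave 3, adding hth (0.86, adjusted p = 0.00790 with all libraries in DESeq2). For NkdΔ30aa against Nkd, where 1 was called, RLE and no filter gave 0, DESeq2 on all libraries 2, no fold minimum 3, the unadjusted p 2, and each library left out 0 to 0. The causes were not tested. Counts over all genes moved further: for NkdΔD6 against GFP, the 959 higher and 538 lower genes became 3 and 5 without GFP replicate 1 and 0 and 0 without NkdΔD6 replicate 1.

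The replicate block gave 4 members with NkdΔ30aa, 3 with NkdΔD6 (hth was added, 0.81, adjusted p = 0.0392 from edgeR), 1 for NkdΔ30aa against Nkd and 0 elsewhere. The labels share only a number, and the correlation of deviations between same-numbered samples ran from -0.22 to 0.37. RLE moved the median of all genes by at most 0.09 on the log2 scale. With 2 libraries per group, left-out fits assume that the lone sample varies like the other groups.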
